A study of Mus musculus with 2 samples.

Results

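The protein-coding genes of the mitochondrial ribosome were described in the heart of the mouse embryo. Members were all protein-coding genes whose GENCODE M21 symbol is Mrpl or Mrps followed by a number and at most one letter. This rule took 77 of the 21474 protein-coding genes in both deposited gene files, of which 48 carry a large subunit name (Mrpl) and 29 a small subunit name (Mrps). GENCODE M21 holds 78 such symbols, and the remaining one, Mrpl33, was not analysed here. TPM (transcripts per length, scaled to a fixed library total) was 1 or more in both libraries for all 77 members, a level that 12491 protein-coding genes reached.

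RNA was sequenced from hearts of strain B6NCrl at embryonic day 15.5, labelled healthy, with males and females mixed. Replicate 1 pooled 78 embryos and replicate 2 pooled 62 embryos, so each library averages many animals and all cell types of the heart. There is 1 group and no treatment, and the study's design therefore allows a description of level and of the spread between both pools, but no contrast between conditions. The smallest p that an exact sign-flip test on 2 libraries could give is 0.5, so no p-value is given. Ensembl genes received 41221435 expected counts in replicate 1 and 38457396 in replicate 2, and members held 594 to 9523 counts in each library. All 12 cardiomyocyte markers, among them Actc1 and Tnnt2, were detected, and their median was 3062 TPM in replicate 1 and 2730 TPM in replicate 2.

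The mitochondrial ribosome translates the few messenger RNAs encoded in the mitochondrial genome, which specify core subunits of the respiratory chain and ATP synthase. Its ribosomal RNAs come from that genome, whereas every one of its proteins is encoded in the nucleus, made in the cytosol and imported. Compared with bacterial ribosomes it is rich in protein, and many of its proteins have no bacterial counterpart. Heart muscle depends on oxidative phosphorylation, and inherited defects of several of these proteins are known to cause cardiomyopathy in people.

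Members formed a group of fairly abundant transcripts. Their median was 84.4 TPM in replicate 1 and 81.9 TPM in replicate 2, a mean of 83.1 ± 1.76 TPM (SD, n = 2). The median of all detected protein-coding genes was 14.5 TPM in replicate 1 and 17.1 TPM in replicate 2. The members' median stood at percentile 88.3 of those genes in replicate 1 and 87.3 in replicate 2. Together the 77 genes took 0.780% of all TPM in replicate 1 and 0.702% in replicate 2. In both libraries 27 members were above 100 TPM, and 16 were below 50 TPM. Only Mrpl42 and Mrps21 exceeded 200 TPM in both libraries.

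**Figure D1:**
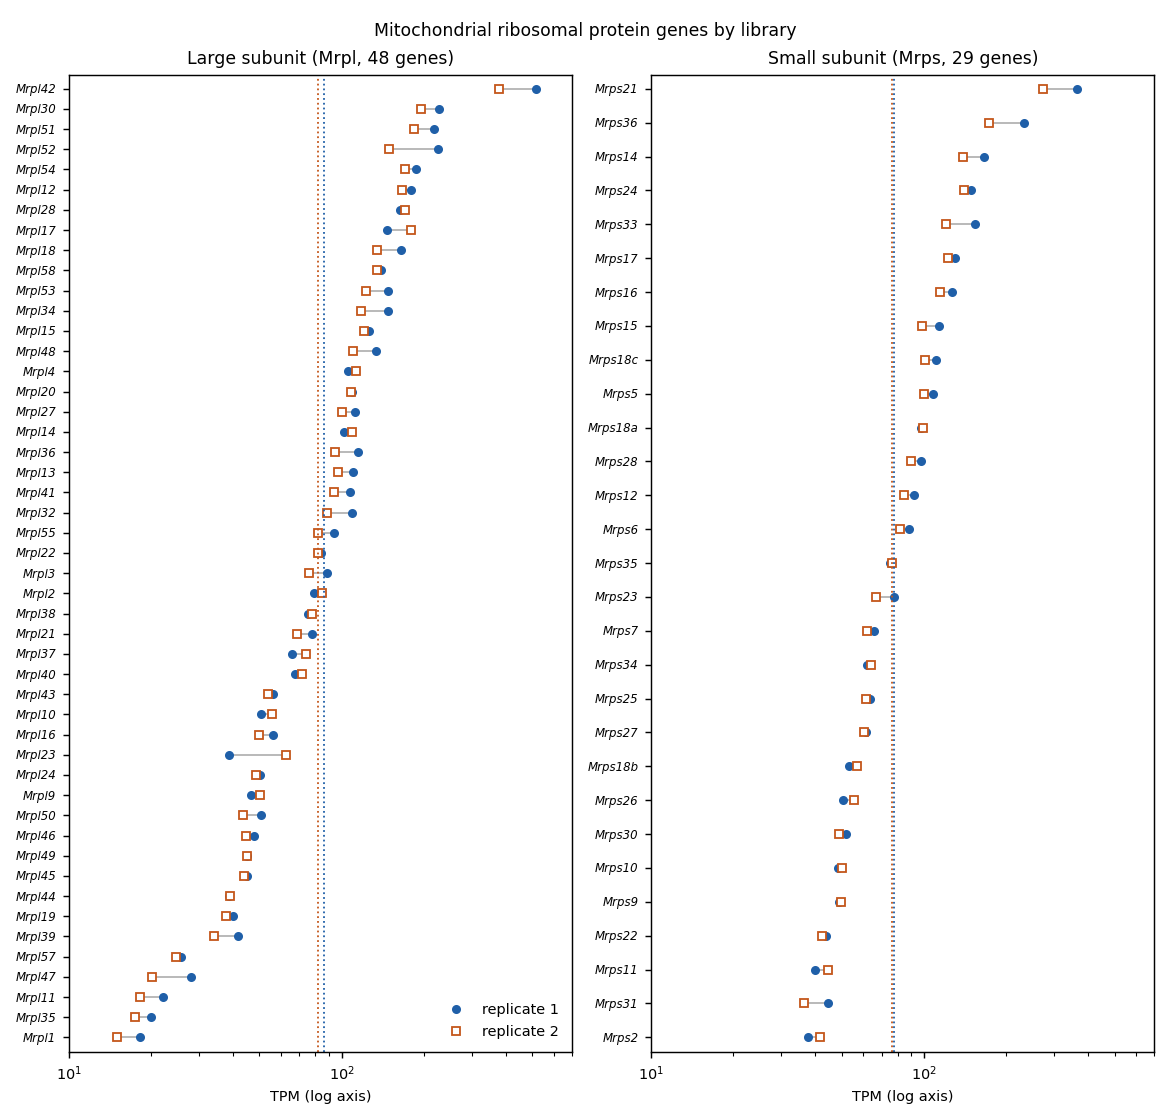
TPM of each member in replicate 1 (filled circles) and replicate 2 (open squares) on a log axis, with large subunit genes on the left, small subunit genes on the right, and dotted lines at the median of each library. Large subunit genes run from Mrpl1 at 18.2 and 15.0 TPM to Mrpl42 at 517 and 378 TPM, while the lowest small subunit genes stay above 36 TPM.

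Mrpl42, a large subunit protein without a bacterial homolog, had the highest level. It reached 517 TPM in replicate 1 (the authors' deposited credibility bounds were 498 and 518) and 378 TPM in replicate 2 (361 and 380). The gene lies on the minus strand of chromosome 10 at 95480805 to 95501940 (mm10). Its mean TPM ranked 248th among detected protein-coding genes, and its single quantified transcript took all of the TPM. Replicate 1 was higher and the bounds of the libraries did not overlap.

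The other leading large subunit genes were close to each other. Mrpl30, a homolog of a bacterial ribosomal protein, stood at 228 TPM in replicate 1 and 196 TPM in replicate 2. Mrpl51 was at 219 and 184 TPM and Mrpl52 at 225 and 149 TPM, both specific to mitochondria. Mrpl54, also without a bacterial homolog, was at 187 and 171 TPM. All of these were higher in replicate 1. The ranges of Mrpl30, Mrpl51 and Mrpl52 over the libraries overlapped, and Mrpl54 lay below Mrpl30 in both.

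At the low end of the large subunit stood 5 genes under 30 TPM. Mrpl1 was lowest of all members at 18.2 TPM in replicate 1 and 15.0 TPM in replicate 2. It encodes a homolog of the bacterial protein of the mobile stalk beside the tRNA exit site, and lies on chromosome 5 at 96209493 to 96266727. Mrpl35 was at 20.0 and 17.4 TPM, Mrpl11 at 22.1 and 18.2 TPM, and Mrpl47 at 27.9 and 20.2 TPM. Mrpl57, a mitochondria-specific protein, was at 25.8 and 24.7 TPM. The mean of Mrpl42 was 27.0 times that of Mrpl1.

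Small subunit genes spanned a narrower range. Mrps21, a homolog of a small subunit protein of bacteria, led with 363 TPM in replicate 1 and 273 TPM in replicate 2. It lies on the minus strand of chromosome 3 at 95862634 to 95871519. Mrps36 followed at 233 and 174 TPM. Despite its name, the Mrps36 protein is known as a subunit of the 2-oxoglutarate dehydrogenase complex rather than of the mitochondrial ribosome. Mrps14 was at 167 and 140 TPM, Mrps24 at 149 and 140 TPM, and Mrps33 at 153 and 120 TPM.

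The lowest small subunit genes were near 40 TPM. Mrps2 was at 37.5 TPM in replicate 1 and 41.6 TPM in replicate 2, and Mrps31 at 44.5 and 36.3 TPM. Mrps11 was at 39.9 and 44.6 TPM, Mrps22 at 43.9 and 42.2 TPM, and Mrps9 at 48.6 and 49.4 TPM. The ranges of Mrps31 and Mrps11 over the libraries overlapped those of both Mrps2 and Mrps22, so the order at this end is not resolved. Over all 77 members sorted by mean TPM, 66 of 76 neighbouring pairs had overlapping ranges. The typical SD between libraries was small, with a median of 6.38% of the mean, and Mrpl23 had the highest at 33.1%.

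The members were more even in level than detected protein-coding genes at large. The SD over members of log2(TPM + 0.1) was 0.95 in replicate 1 and 0.90 in replicate 2, beside 2.08 and 1.96 over detected protein-coding genes. The level at the 90th percentile was 4.36 times that at the 10th in replicate 1 and 4.37 times in replicate 2, beside 42.9 and 32.6 times for detected protein-coding genes. In replicate 1, 58 of 77 members (75.3%) lay within 2-fold of the members' median, and 59 (76.6%) did in replicate 2. The same share of detected protein-coding genes around their own median was 36.7% in replicate 1. These are descriptions over genes, which are not replicates.

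Other multi-subunit machines were about as even on the same scale. The 78 cytosolic ribosomal protein genes had an SD of 1.00 in replicate 1 and 0.99 in replicate 2, at a median of 432 and 398 TPM. The 33 listed nuclear genes of oxidative phosphorylation had an SD of 1.01 and 0.92, at a median of 856 and 775 TPM. The median of the cytosolic ribosomal protein genes was 5.11 times that of the members in replicate 1 and 4.86 times in replicate 2.

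TPM was lower for members with longer transcripts. Effective length, the number of positions from which a fragment of a transcript can come, ranged over members from 313 bases (Mrpl52) to 3616 bases (Mrpl35). Across the 77 members log2 effective length and log2 mean TPM had a Pearson r of -0.79 and a Spearman rho of -0.77. The same r was -0.36 over detected protein-coding genes. TPM is divided by effective length, so both axes share that quantity. On CPM, counts scaled to the library total without division by length, r was -0.01 over the members.

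Without division by length the members drew closer together. The SD of log2(CPM + 0.1) was 0.60 in replicate 1 and 0.54 in replicate 2. Cytosolic ribosomal protein genes kept an SD of 0.99 and 1.04 on that scale, and oxidative phosphorylation genes one of 0.96 and 0.98. Mrpl35 illustrates the pattern. Its quantified transcript has 3715 bases, of which 564 are coding, and its mean of 18.7 TPM corresponded to 57.0 CPM in replicate 1 and 47.6 CPM in replicate 2. Mrpl52, with a transcript of 412 bases, had 187 ± 53.8 TPM but 55.7 and 35.3 CPM.

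**Figure D2:**
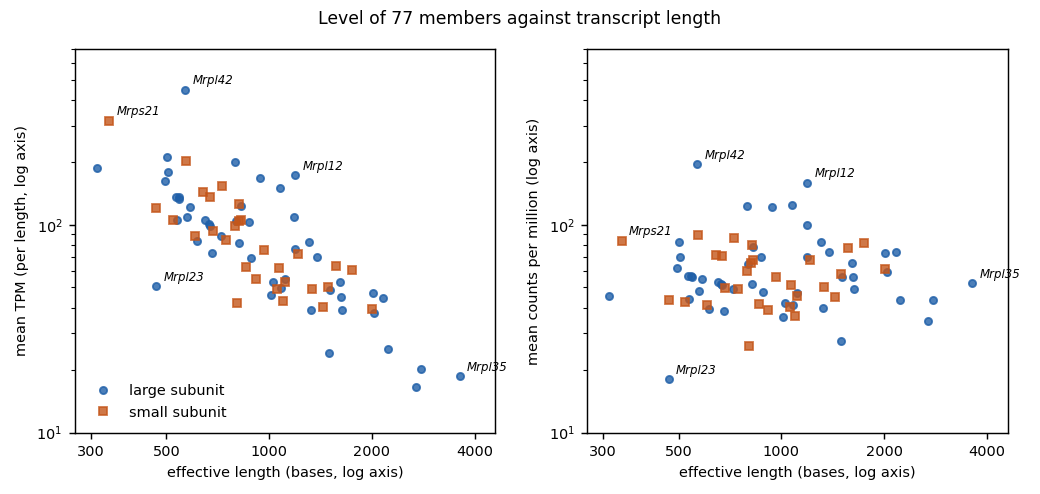
Mean TPM (left) and mean CPM (right) of each member against effective length in bases, all axes on a log scale, with large subunit genes as circles and small subunit genes as squares. TPM falls along the length axis (r = -0.79), while CPM shows no trend (r = -0.01); Mrpl42 and Mrpl12 lie above the others and Mrpl23 below them on the right.

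On the scale without length, Mrpl42 remained highest at 231 CPM in replicate 1 and 162 CPM in replicate 2. Mrpl12 came next at 169 and 150 CPM. By the mean of the libraries the lowest were Mrpl23 at 14.4 and 21.7 CPM and Mrps11 at 26.0 and 26.4 CPM, and in replicate 2 Mrpl47 was at 24.4 CPM.

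Large and small subunit genes differed little in level. The median was 86.5 TPM for Mrpl genes and 77.6 TPM for Mrps genes in replicate 1, and 82.0 and 76.6 TPM in replicate 2. The difference of the medians of log2(TPM + 0.1), large minus small, was 0.16 in replicate 1 and 0.10 in replicate 2, a mean of 0.13 ± 0.04 (SD, n = 2). The sign was not stable, since the difference was -0.056 with means over genes in place of medians and -0.076 on CPM. Mrps18a and Mrps30 encode proteins that structures place in the large subunit. Moving both there and leaving out Mrps36 gave differences of 0.18 and 0.20.

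The spread inside the subunits differed more than their medians. The SD of log2(TPM + 0.1) was 1.03 in replicate 1 and 1.01 in replicate 2 over large subunit genes, beside 0.80 and 0.69 over small subunit genes. All 5 members under 30 TPM in both libraries were Mrpl genes.

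Genes listed as having a bacterial homolog stood higher than the other members. The 45 listed genes had a median of 97.2 TPM in replicate 1 and 88.8 TPM in replicate 2. The 31 not listed had a median of 63.4 and 64.1 TPM. This class includes Mrps18a and Mrps18b, relatives of bacterial S18 described below, so it is not purely mitochondria-specific. Mrps36 was left out of both classes. In the small subunit the medians were 103 and 94.2 TPM for 16 listed genes beside 61.5 and 60.6 TPM for 10 not listed. In the large subunit they were 94.1 and 84.7 TPM beside 67.7 and 73.9 TPM, and several of the highest large subunit genes, such as Mrpl42, belong to the lower class. Effective length differed as well, with a median of 817 bases for the listed genes and 1066 bases for the others. Its part in the difference was not tested.

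The stalk of the large subunit, which recruits translation factors, was the least even of the structural groups. Mrpl12, present in the ribosome in several copies, was at 179 TPM in replicate 1 and 167 TPM in replicate 2. Mrpl10, which anchors those copies, was at 50.6 and 55.4 TPM. Mrpl11, at the base of the stalk, was at 22.1 and 18.2 TPM. The 3 genes kept this order in both libraries without overlap.

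Around the exit of the polypeptide tunnel, levels spread from 24.1 to 164 TPM as means of the libraries. Mrpl17 was highest at 147 TPM in replicate 1 and 180 TPM in replicate 2; its TPM was higher in replicate 2, whereas TPM was lower there for 55 of the 77 members. Mrpl22, which lines the tunnel, was at 84.4 and 82.0 TPM. Mrpl24 was at 50.2 and 48.7 TPM, and Mrpl45, which tethers the ribosome to the inner membrane, at 44.9 and 43.9 TPM. Mrpl47 was at 27.9 and 20.2 TPM. Mrpl23 needs separate treatment and is described with its pseudogene.

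The mammalian mitochondrial ribosome has 3 relatives of a single bacterial protein, S18. Mrps18c, the relative in the small subunit at the position of the bacterial protein, was at 110 TPM in replicate 1 and 101 TPM in replicate 2. Mrps18a, in the large subunit, was at 97.7 and 99.5 TPM, and their ranges nearly touched. Mrps18b, on the small subunit, was lower at 53.1 and 57.0 TPM.

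Of the members whose human orthologs are linked to inherited cardiomyopathy, all 4 listed were detected. Mrps14 was highest at 167 TPM in replicate 1 and 140 TPM in replicate 2. Mrpl3 was at 88.7 and 76.2 TPM, Mrps22 at 43.9 and 42.2 TPM, and Mrpl44, which has an RNase III-like fold, at 38.6 and 39.2 TPM. Their median of 66.3 and 59.2 TPM lay below that of all members. In protein-coding transcripts alone the order differed, with 15.3 and 9.85 TPM for Mrps14, 11.6 and 10.1 TPM for Mrpl3, 43.8 and 42.2 TPM for Mrps22, and 38.3 and 39.0 TPM for Mrpl44. These values depend on the transcript classes described below, which come from a later GENCODE release than the one used for counting.

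Mrpl23 has an annotated processed pseudogene, Mrpl23-ps1, that received more counts than the gene. The gene, on chromosome 7 at 142532686 to 142540747, was at 38.7 TPM in replicate 1 and 62.3 TPM in replicate 2, with the authors' deposited bounds at 27.3 to 55.5 and 46.6 to 81.1 TPM. The pseudogene, on chromosome 2 at 74591330 to 74591909, was at 156 and 119 TPM. Of the counts assigned to both, the gene held 19.6% in replicate 1 and 33.5% in replicate 2. The sequences were not compared here. How the counts divide between a gene and its pseudogene is uncertain, and so is the level of Mrpl23. Pseudogenes of Mrpl48 and Mrps36 were low, at most 3.53 TPM in either library.

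The deposited transcript table assigns each gene's TPM to its annotated transcripts. For 73 of 77 members the leading transcript was the same in both libraries. It held a median of 93.9% of the gene's TPM in replicate 1 and 92.9% in replicate 2, more than 90% in both for 41 members, and 19 members had a single quantified transcript. The leading transcript differed between libraries for Mrpl51, Mrps5, Mrpl40 and Mrps11. In 7 members no transcript reached 50% in either library, namely Mrpl24, Mrpl30, Mrpl48, Mrpl51, Mrpl55, Mrps5 and Mrps10. The leading transcript of Mrpl55 held 44.1% in replicate 1 and 41.4% in replicate 2, and that of Mrps10 held 45.8% and 45.1%.

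For 15 members the leading transcript in at least one library belonged to a class other than protein-coding in GENCODE M21. Mrps14 had 90.8% of its TPM in replicate 1 and 92.9% in replicate 2 in Mrps14-201, of the nonsense-mediated decay class, transcripts whose early stop is expected to trigger breakdown. Mrpl3 had 65.4% and 72.6% in Mrpl3-204 of the same class. The only quantified transcript of Mrpl32 is also in it. In Mrpl13 that class led with 57.1% and 57.7%, and in Mrpl48 with 41.9% and 39.3%.

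Transcripts that keep an intron led in other members. Mrps26-201 held 95.2% of the TPM of Mrps26 in both libraries. Mrps24-201 held 76.4% and 72.8% of Mrps24, and Mrps25-201 held 69.9% of Mrps25 in both libraries. Mrpl15, Mrpl19, Mrpl23 and Mrpl47 were led by transcripts of the processed class, which have no annotated reading frame, with 61.2%, 54.3%, 75.0% and 65.4% of TPM in replicate 1. Mrpl51 had only 7.76% and 9.61% of its 219 and 184 TPM in protein-coding transcripts.

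**Figure D3:**
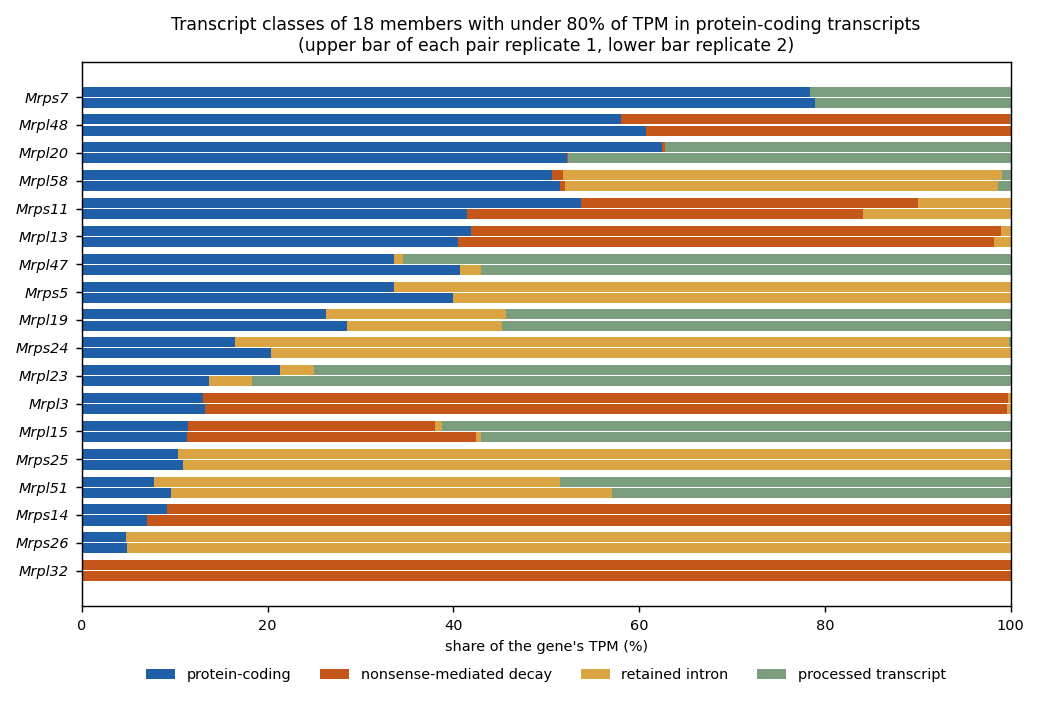
Share of TPM by GENCODE M21 transcript class for the 18 members with under 80% in protein-coding transcripts in both libraries, with replicate 1 as the upper and replicate 2 as the lower bar of each pair. Shares are alike in the libraries for most of these genes. The protein-coding share was 53.7% in replicate 1 and 41.5% in replicate 2 for Mrps11, and 62.4% and 52.2% for Mrpl20. Mrpl32, Mrps26, Mrps14 and Mrpl51 have under 10% in the protein-coding class.

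Protein-coding transcripts held at least 90% of TPM in both libraries for 48 members and under 80% in both for 18. The quantification used GENCODE M4 and the classes come from GENCODE M21, so a class may differ from that of the annotation used for counting. Counting only protein-coding transcripts raised the SD of log2 TPM over members from 0.92 to 1.68 as a mean of the libraries. The only quantified transcript of Mrpl32 is of the nonsense-mediated decay class, so none of its counts could fall in the protein-coding class. This gene therefore enters at the pseudocount, far below the other members. Its part in the rise was not separated. The median over the 48 mostly coding members was 86.1 TPM in replicate 1 and 82.0 TPM in replicate 2, close to that of all 77.

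The exons of 32 members overlapped another gene, on the opposite strand in 28. Use of strand in the counting was not given in the sources used here, and these values are uncertain. Mrpl46 and Mrps11, a large and a small subunit gene, lie head to head on chromosome 7 and overlap each other. Their levels were similar, at 47.8 and 44.6 TPM for Mrpl46 and 39.9 and 44.6 TPM for Mrps11. The 49 members with no exon on the opposite strand had a median of 97.2 TPM in replicate 1 and 88.8 TPM in replicate 2.

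Members lay on 17 chromosomes, with 11 on chromosome 11 and 8 on chromosome 17. A head-to-head protein-coding neighbour on the other strand, starting upstream within 1000 bases and without overlap of the genes, was found for 18 of 77 members (23.4%). Overlapping pairs such as Mrpl46 and Mrps11 are not in this count. The same held for 10.1% of detected protein-coding genes and 11.5% of cytosolic ribosomal protein genes. The partners named here were picked for their function after the list was seen. Mrps12, which encodes the decoding-site protein of the small subunit, starts 172 bases from Sars2, the mitochondrial seryl-tRNA synthetase. Mrpl49 starts 59 bases from Fau, which encodes a cytosolic ribosomal protein, and Mrpl32 starts 75 bases from the proteasome gene Psma2. Mrps27 starts 81 bases from Ptcd2, whose product acts on mitochondrial RNA.

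In 16 of these 18 pairs the member had the higher mean TPM. Members are high in general, with their median at percentile 88.3 of detected protein-coding genes in replicate 1 and 87.3 in replicate 2. The count is therefore not read as a feature of the pairs. Mrpl30 averaged 212 TPM and its partner Mitd1 8.92 TPM, and Mrpl10 averaged 53.0 TPM beside 0.745 TPM for Lrrc46. Mrps12 averaged 88.0 TPM and Sars2 14.0 TPM. The partner was higher in the other two pairs. Mrpl49 averaged 44.9 TPM and Fau 296 TPM. Mrpl32 averaged 98.8 TPM beside 240 TPM for Psma2. Mrps27 and Ptcd2 were close, at 60.6 and 56.8 TPM.

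Stretches before the starts of 7 members are printed to show the short shared promoters and the motif matches, from RefSeq promoters of GRCm38.p6, 5′ to 3′ on the strand of the member. Each is the stretch nearest the start that lies outside annotated exons, and capitals mark a match to one of the motifs described next, Sp excepted.
Mrps12, chr7:28741822-28741941, minus strand: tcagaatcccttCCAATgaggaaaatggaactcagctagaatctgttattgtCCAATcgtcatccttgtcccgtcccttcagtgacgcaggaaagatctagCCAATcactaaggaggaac
Mrps27, chr13:99344706-99344785, plus strand: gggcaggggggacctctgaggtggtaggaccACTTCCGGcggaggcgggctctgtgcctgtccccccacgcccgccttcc
Mrpl49, chr19:6057786-6057843, minus strand: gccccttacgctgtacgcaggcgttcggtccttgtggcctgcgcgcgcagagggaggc
Mrps22, chr9:98601680-98601799, minus strand: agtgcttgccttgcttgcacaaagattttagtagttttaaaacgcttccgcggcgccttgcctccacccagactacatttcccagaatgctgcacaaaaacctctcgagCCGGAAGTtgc
Mrpl22, chr11:58171541-58171660, plus strand: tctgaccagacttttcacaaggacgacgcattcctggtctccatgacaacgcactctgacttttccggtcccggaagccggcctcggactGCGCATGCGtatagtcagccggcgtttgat
Mrpl10, chr11:97041440-97041559, plus strand: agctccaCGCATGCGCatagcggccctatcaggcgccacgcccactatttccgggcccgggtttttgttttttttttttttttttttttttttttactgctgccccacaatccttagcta
Mrpl42, chr10:95501950-95502069, minus strand: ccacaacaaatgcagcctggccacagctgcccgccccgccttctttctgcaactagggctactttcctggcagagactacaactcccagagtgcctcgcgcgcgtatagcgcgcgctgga

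Mrps12, Mrps27 and Mrpl49 are shown as genes with a head-to-head partner, Mrps22 as a gene linked to cardiomyopathy, Mrpl22 and Mrpl10 for their match to the motif of NRF1, and Mrpl42 as the most abundant member. NRF1, ETS factors such as GABP, and YY1 are known regulators of nuclear genes for mitochondrial proteins. Promoters were found for 68 of the 77 members, and the 250 bases before the start were searched on both strands.

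The motif GCGCATGCG of NRF1 was present in 7 of 68 members (10.3%), beside 3.17% of detected protein-coding genes and 2.10% of all protein-coding genes. Its carriers were Mrpl9, Mrpl10, Mrpl17, Mrpl22, Mrpl32, Mrpl39 and Mrps18b. The ETS motif CCGGAAGT was present in 9 members (13.2%), beside 6.07% of detected and 4.08% of all protein-coding genes, among them Mrpl3, Mrps18c, Mrps22 and Mrps27. The YY1 motif AAGATGGCG was present in Mrpl36 and Mrps11 (2.94%), beside 1.13% of detected genes. At least one of these motifs was present in 18 members (26.5%), beside 9.93% of detected protein-coding genes.

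Common promoter motifs were near or below the background. CCAAT, the motif of NF-Y, was present in 24 members (35.3%), beside 36.7% of detected protein-coding genes. GGGCGG, the motif of Sp factors, was present in 33 members (48.5%), beside 60.8%. The Mrps12 stretch holds CCAAT 3 times. The median GC content was 58.4% over members and 60.0% over detected genes. Members with the NRF1 motif had a median of 55.0 TPM and those without it 82.4 TPM, while for the ETS motif the medians were 82.4 and 81.9 TPM. A match describes the letters and does not show binding.

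The libraries were then compared with each other, to describe how far the members moved together between pools. Ratios are log2 of expected counts in replicate 2 over replicate 1 after TMM scaling, which sets the typical gene near 0, and a gene is called when it passes 1.5-fold. Tested were 14711 protein-coding genes with 10 counts or more in each library. Over these the median ratio was -0.01, and 50.9% of genes were negative. With 1 library on each side there is no test, and the exact intervals cover counting error only.

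Nearly all members were lower in replicate 2. The ratio was negative for 75 of 77 members, with a median of -0.32. For 73 of them the counting interval lay below 0, but the same share over all genes tested was not computed. The summed counts of all members gave -0.35 (95% interval -0.36 to -0.34). The median was -0.36 over large subunit genes and -0.29 over small subunit genes. The size depended on the scaling, with a median of -0.15 and 63 members lower after scaling to total counts, which moved the median gene to 0.17. Scaling to spike-ins gave -1.24 and moved the median gene to -0.92. A scaling factor shifts all genes alike, so the members' median lay 0.32 below that of the genes tested under each of these scalings. The median ratio of the deposited TPM was -0.10, with 55 members lower. On that scale the median of detected protein-coding genes rose from 14.5 TPM in replicate 1 to 17.1 TPM in replicate 2. The share of all genes lower on TPM is not given here.

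Past 1.5-fold lower in replicate 2 were 5 members of 77, while 3.03% of the 14711 genes tested passed in that direction. Past 1.5-fold higher were 0 members, while 11.4% of genes tested passed. Mrpl52 was farthest, with 2291 counts in replicate 1, 1355 in replicate 2 and a ratio of -0.83 (interval -0.93 to -0.73). Mrpl42 had -0.69, Mrps21 -0.65, Mrps36 -0.62 and Mrps33 -0.59. With DESeq2 size factors Mrps33 had -0.58 and was no longer past 1.5-fold, which left 4 members, beside 2.88% of genes tested. These 5 include the 2 most abundant members, and their effective lengths ran from 313 to 672 bases.

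At the other end, Mrpl23 was higher in replicate 2 with a ratio of 0.42 (interval 0.27 to 0.57), while its pseudogene was at -0.63. Their summed counts gave -0.35, close to the other members. Mrpl17 had 0.08, with an interval of -0.00 to 0.16. Mrpl37 had -0.07, Mrps2 -0.08 and Mrps26 -0.10.

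**Figure D4:**
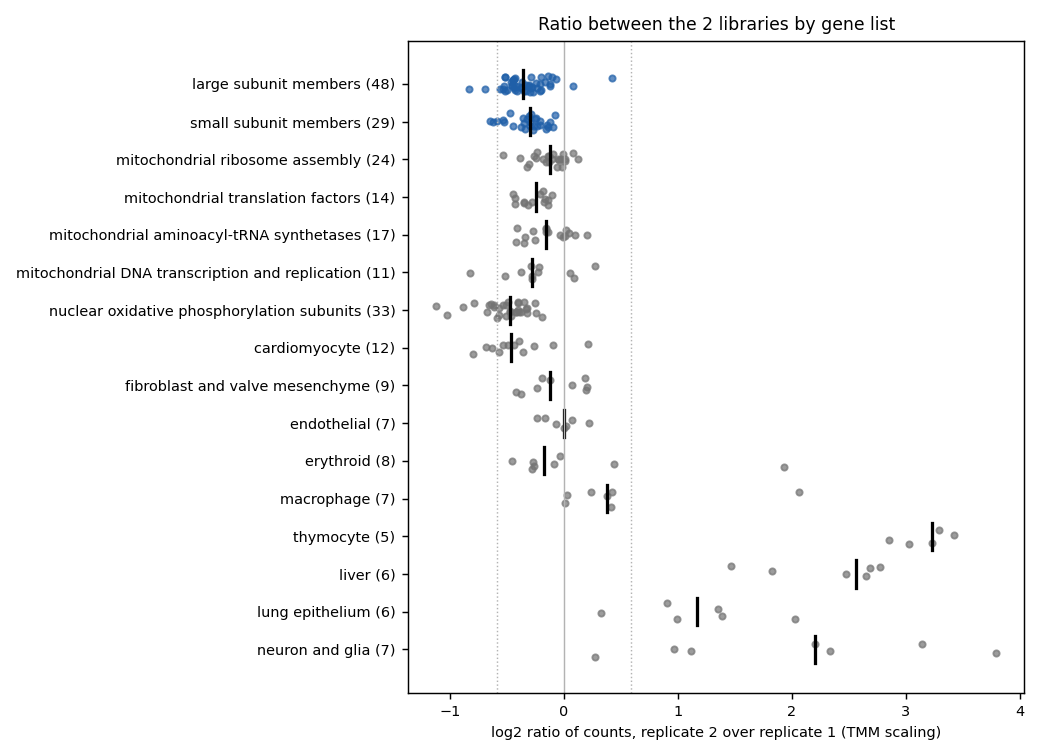
Log2 ratio of counts, replicate 2 over replicate 1, for each gene of the large and small subunits (blue) and of the listed pathways and cell type markers (grey), with the number of genes in brackets, a black bar at each median and dotted lines at 1.5-fold. Members centre at -0.36 and -0.29, between the oxidative phosphorylation genes at -0.48 and the assembly factors at -0.12, while thymocyte, liver, lung and neuronal markers lie to the right.

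Other gene groups moved between the libraries as well. Cytosolic ribosomal protein genes had a median of -0.33, with 77 of 78 negative and 8 past 1.5-fold lower. Oxidative phosphorylation genes had a median of -0.48, with 33 of 33 negative and 10 past 1.5-fold lower. Over all genes tested, 3.03% passed in that direction. The members' median thus lay close to that of cytosolic ribosomal protein genes and above that of oxidative phosphorylation genes.

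Cell type markers differed between the libraries by list. Over all genes tested, 3.03% passed 1.5-fold lower and 11.4% passed 1.5-fold higher. Cardiomyocyte markers had a median of -0.47, with 11 of 12 negative. Endothelial markers had a median of -0.001 (4 of 7 negative), fibroblast and valve mesenchyme markers -0.13 (5 of 9), erythroid markers -0.17 (6 of 8) and macrophage markers 0.38 (0 of 7). Thymocyte markers summed to 11.6 TPM in replicate 1 and 114 TPM in replicate 2, with all 5 that had enough counts past 1.5-fold higher and Dntt near 0 in both. Liver markers summed to 45.1 and 206 TPM, with 6 of 6 past 1.5-fold higher. Lung epithelium markers summed to 134 and 332 TPM (5 of 6 past 1.5-fold higher), and neuron and glia markers to 13.4 and 59.0 TPM (6 of 7). Their part in the members' ratio was not tested. In bulk tissue, fewer cells of a type and less RNA per cell cannot be told apart.

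Transcript length moved with the ratio as well. Among other protein-coding genes in the TPM range of the members, the median ratio was -0.42 under 500 bases of effective length, -0.28 from 500 to 700 bases, -0.20 from 700 to 1000 bases, -0.12 from 1000 to 1500 bases and -0.06 above. Members had -0.38, -0.40, -0.28, -0.30 and -0.29 in the same classes, from 5, 20, 18, 20 and 14 genes. The members' median lay 0.04 above that of other genes in the shortest class and 0.12, 0.08, 0.18 and 0.23 below it in the longer classes. Whether length accounts for part of the ratio was not tested.

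The ribosomal RNAs that these proteins bind were lower in replicate 2 too. The small subunit RNA mt-Rnr1 was at 2044 TPM in replicate 1 and 1058 TPM in replicate 2, with a ratio of -1.19. The large subunit RNA mt-Rnr2 was at 7183 and 3922 TPM, with a ratio of -1.11. The labels name total RNA while the linked kit primes on poly(A) tails, so these levels are not comparable with those of the messenger RNAs.

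Mitochondrial ribosomal proteins with other names were at levels like those of the members. The 5 listed had a median of 103 TPM in replicate 1 and 99.4 TPM in replicate 2, and all 5 had negative ratios with a median of -0.28. Chchd1 was highest at 159 ± 36.5 TPM and Gadd45gip1 lowest at 37.9 ± 0.891 TPM. Dap3, the GTP-binding protein of the small subunit, was at 110 ± 2.31 TPM.

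Factors that build or serve the mitochondrial ribosome were lower than its proteins, and every listed gene was detected. The 24 assembly factors had a median of 18.3 TPM in replicate 1 and 20.9 TPM in replicate 2, from the mTERF family gene Mterf3 at 42.4 ± 6.73 TPM to Ybey, which acts in ribosomal RNA processing, at 3.28 ± 0.573 TPM. Their median ratio was -0.12, with 20 of 24 negative and 0 past 1.5-fold in either direction.

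The 14 translation factors had a median of 28.0 and 26.7 TPM, with all 14 ratios negative and a median of -0.25. Slirp, which stabilises mitochondrial messenger RNAs, was highest at 198 ± 24.4 TPM, and the release factor family gene Mtrf1 lowest at 7.61 ± 0.0849 TPM. The elongation factor Tufm, at 142 ± 6.56 TPM, also lay above the members' median.

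Mitochondrial aminoacyl-tRNA synthetases, which charge the tRNAs read by this ribosome, had a median of 21.3 and 23.0 TPM over 17 genes. Lars2 stood apart at 665 ± 60.7 TPM, while the next gene, Rars2, was at 39.0 ± 2.18 TPM and Mars2 was lowest at 2.83 ± 0.120 TPM. Of the 17 ratios, 12 were negative and the median was -0.15. The 11 genes of mitochondrial DNA transcription and replication had a median of 15.8 and 16.3 TPM, from the single-stranded DNA binding protein gene Ssbp1 at 78.6 ± 2.52 TPM to Mterf1b at 1.29 ± 0.368 TPM. Their median ratio was -0.28, with 8 of 11 negative.

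The products of the 33 listed oxidative phosphorylation genes assemble with those of mitochondrial translation. These genes had a median TPM 10.1 times that of the members in replicate 1 and 9.46 times in replicate 2. Atp5b, the catalytic subunit of ATP synthase, was highest at 4811 ± 426 TPM and Ndufs8, a subunit of complex I, lowest at 242 ± 5.02 TPM. Ndufs8, the lowest of those listed, was above 75 of the 77 members in mean TPM.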

How the data were processed

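Both libraries of the only group were used. Per the labels' protocols, mirVana extraction was followed by library preparation from 10 ng of RNA above 200 nt with added spike-ins, and a SMARTer manual is linked. Per the file headers, quantification was on mm10 with GENCODE M4. Aligner, quantifier and use of strand: not given in the sources used here. Expected counts, as the authors deposited them, estimate each gene's reads without normalization and divide ambiguous reads between genes. TPM, as deposited, are these counts per effective length, scaled to a fixed sum that includes the spike-ins. The authors' bounds on TPM are a signal on the TPM scale that is never negative, and their deposited percent says how much of a gene's TPM each transcript holds.

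Of 43346 Ensembl genes, 42462 matched GENCODE M21 (same build) by stable identifier for symbols, classes and positions. Library totals were 41883313 (replicate 1) and 39697992 (replicate 2) expected counts, with 1.58% and 3.12% on spike-ins. A single read at an effective length of 1 kilobase was worth 0.0308 and 0.0345 TPM; the lowest member had 594 counts. TMM factors came from edgeR 4.0.16 and size factors from DESeq2 1.42.0 (R 4.3.3) on rounded expected counts. Both were run on simulated counts with changes balanced in both directions. In the real data 3.03% of genes tested passed 1.5-fold lower and 11.4% higher, a setting that the simulation does not cover. Log scales use a pseudocount of 0.1, and ratios at least 10 counts in both libraries. Intervals are exact 95% intervals and cover counting error only, because the reads carry no molecular identifiers. Nothing in the labels gives the embryos of a pool apart, so the SD is a spread between pools.

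Members, lists and tests were chosen with earlier results of these data known. Named genes are, in each subunit, the 5 highest and 5 lowest by mean TPM. Over both subunits together they are also the 5 highest and 5 lowest ratios among members with 100 counts or more in each library, the structural and disease lists, members whose leading transcript held under 50% in both libraries, was not protein-coding or differed, and the highest and lowest gene of each process list. Other names (genes with a head-to-head partner, motif carriers, pseudogenes, and Dap3, Tufm and Rars2) were chosen after their values were seen. Protein lengths and identities were planned and not analysed here. Alternatives were the posterior mean TPM, CPM, rescaled TPM, pseudocounts, filters, folds, scalings and leaving out a library.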

Additional observations from a re-analysis of the deposited data

How the results depend on the processing

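No paired analysis was possible because the study has 1 group with 2 libraries. On expected counts scaled to the library total (CPM) the median over members was 53.8 and the evenness SD 0.57, where TPM gave 83.1 and 0.92. CPM are not divided by length and are another unit than TPM, so the medians are not comparable. TPM rescaled over Ensembl genes gave a median of 87.3. With protein-coding transcripts only, the SD was 1.68, with Mrpl32 at the pseudocount. The difference between subunits, 0.13 as reported, was -0.076 on CPM and -0.056 with means over members, and 0.19 by structure; the cause was not tested. The median ratio of -0.32 was -0.31 with DESeq2 size factors, -0.15 with total counts, -1.24 with spike-ins and -0.10 as a ratio of the authors' TPM. The 5 members past 1.5-fold lower became 4 with DESeq2 size factors (Mrps33 at -0.58 was lost), 1 with total counts, 76 with spike-ins, 1 with TPM, 39 at a smaller fold and 0 at 2-fold. Of all genes tested, 2.88% were lower with DESeq2 size factors, 1.35% with total counts and 81.6% with spike-ins, which shift nearly every gene. The count higher, 0 as reported, was 1 with total counts, 1 with TPM and 1 at the smaller fold. With total counts 15.4% of all genes tested were higher. Shares over all genes are not given here for TPM and the other folds. Leaving out either library gave medians of 81.9 to 84.4 TPM, SDs of 0.90 to 0.95, subunit differences of 0.10 to 0.16 and leading transcript shares of 92.9% to 93.9%.

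Chosen after seeing the data, the 48 members with 90% or more of TPM in protein-coding transcripts gave an SD of 1.04 and a ratio of -0.35. The 49 members without an exon on the opposite strand gave a median of 93.0 TPM, an SD of 1.01 and a ratio of -0.35. Leaving out Mrpl23 gave 84.0 TPM and -0.33. Under the posterior mean TPM, 71 of 77 single members moved by less than their SD and 6 by more. All members had at least 594 counts in each library, and 2 libraries give only a rough SD.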
